A study of Homo sapiens with 12 samples.

Results

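The expression of the genes that build heme was followed in HEL cells that had regrown after chemotherapy. HEL is an established human erythroleukemia line, a form of acute myeloid leukemia (AML) with erythroid and megakaryocyte features. The group held 9 genes, chosen by name among the 26481 genes with a count in every library: the enzyme genes ALAS1, ALAS2, ALAD, UROS, UROD, CPOX, PPOX and FECH, and the carrier gene SLC25A38. All 9 were found and all 9 passed the filter on low counts. They were matched by gene name, with no threshold on a measured value.

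RNA-seq was available for 12 libraries of barcoded HEL cells in 4 groups. The NT group (2 libraries, replicates 1 and 2) was cultured with the solvent DMSO and no drug. Doxo relapses (3 libraries, replicates 4, 5 and 6) had received 1.8 µM doxorubicin, an anthracycline that blocks topoisomerase. Doxo + Cyta relapses (3 libraries, replicates 19, 20 and 22) had received 1.8 µM doxorubicin with 6 µM cytarabine, a cytidine analogue that stops DNA synthesis. Doxo + Cyta + DAC relapses (4 libraries, replicates 30 to 33) had received the same doses of both with 0.1 µM decitabine, an inhibitor of DNA methyltransferases. The drugs were present for about 3 days. The live cells were then washed and reseeded without drug. Relapse cultures were collected about a month later, when they had regrown to their starting number. The relapse values therefore describe regrown cultures of 1 cell line, not cells under drug. NT cultures were not depleted, and the paper reports that untreated cells expanded over that time. Comparisons with NT thus also set depleted and regrown cultures against cultures that had expanded throughout. Each library was bulk RNA, so a change in the share of cells that express a gene and a change in RNA per cell cannot be told apart. Nothing in the labels separates the replicates by batch, and p-values measure the spread between these cultures.

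Total counts ranged from 12763582 to 19106235 per library, so that 3 counts corresponded to between 0.157 and 0.235 CPM, or counts scaled to a library of 1000000. The lowest count of any of the 9 genes in any library was 239, for PPOX, far above that floor. In the check of the cell line, 12 of 13 erythroid marker genes reached a mean of 1 CPM, with AHSP at 0.00429 CPM, and 5 of 9 megakaryocyte and platelet genes did, with GP1BB at 0. Summed erythroid markers lay between 6501 and 7736 CPM in NT, between 9026 and 10030 CPM in Doxo, between 8964 and 9878 CPM in Doxo + Cyta and between 6735 and 10020 CPM in Doxo + Cyta + DAC, so that the Doxo and Doxo + Cyta libraries were all above NT. Summed megakaryocyte markers lay between 1869 and 1941 CPM in NT and between 1143 and 1442 CPM in Doxo + Cyta + DAC, and were at least 1707 CPM in every library of the other two groups. Of the markers of other cells, 2 of 8 granulocyte and monocyte genes, 2 of 6 lymphocyte genes and 1 of 6 epithelial and fibroblast genes reached 1 CPM, while ELANE, PRTN3, FCN1, MS4A1 and KRT5 were at 0. The last list summed to between 6.6 and 9.65 CPM in Doxo + Cyta + DAC and to between 35.0 and 51.9 CPM in the other libraries, nearly all of it PDGFRB. The granulocyte and monocyte list summed to between 19.2 and 32.5 CPM and the lymphocyte list to between 20.9 and 58.8 CPM over all libraries. The part of these lists in the results was not tested. Doxo replicate 4 and Doxo + Cyta replicate 20 stood apart from their groups: the chi-square per degree of freedom between libraries was 25.5 and 27.8 for pairs with Doxo 4 against 2.97 for Doxo 5 with 6, and 43.7 and 45.3 for pairs with Doxo + Cyta 20 against 6.93 for 19 with 22. For comparisons that involve these groups, the genes of the 9 past the threshold are also given without both libraries. Many values of single genes, and all results for the lists of other genes, are given with all 12 libraries only. Where libraries of different groups are said to lie apart, the share of all genes that separate in the same way was not counted.

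Heme is the iron-holding ring of hemoglobin, cytochromes and catalase, and erythroid cells make more of it than other blood cells. Its synthesis starts in the mitochondrion, where 5-aminolevulinate synthase joins glycine to succinyl-CoA. ALAS1 encodes the form of that enzyme found in all tissues and ALAS2, on the X chromosome, the erythroid form. SLC25A38 is a carrier of the inner mitochondrial membrane that brings in glycine. The middle steps take place in the cytosol, where ALAD makes porphobilinogen, UROS closes the ring and UROD removes carboxyl groups. CPOX and PPOX, back in the mitochondrion, carry out oxidation steps, and FECH inserts iron. In erythroid cells many of these genes are targets of the transcription factor GATA1.

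RefSeq (GRCh38.p14) gave promoter sequences for 8 of the 9 genes; UROS had none in the table used. Shown are the sequences of CPOX, FECH and ALAS2, all lower in Doxo + Cyta + DAC than in Doxo + Cyta relapses. That of UROD, which was higher, is shown too. ALAD and PPOX were also lower in that comparison, and their sequences are not printed. The printed runs are examples, and no link between a motif and a change was tested. Each run reads 5′ to 3′ on the strand of the gene and covers the bases before the RefSeq start that lie outside the gene as deposited. Capitals mark a GATA-type motif, searched on both strands as AGATAA with T also allowed in its first place and G in its last; on the opposite strand it reads TTATCT here.
CPOX, chr3:98593612-98593861, minus strand: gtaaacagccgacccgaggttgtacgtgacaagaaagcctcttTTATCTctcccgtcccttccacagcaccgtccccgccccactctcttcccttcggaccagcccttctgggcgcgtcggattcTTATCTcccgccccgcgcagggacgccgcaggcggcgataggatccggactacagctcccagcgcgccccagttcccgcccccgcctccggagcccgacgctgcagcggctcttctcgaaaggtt
FECH, chr18:57586738-57586952, minus strand: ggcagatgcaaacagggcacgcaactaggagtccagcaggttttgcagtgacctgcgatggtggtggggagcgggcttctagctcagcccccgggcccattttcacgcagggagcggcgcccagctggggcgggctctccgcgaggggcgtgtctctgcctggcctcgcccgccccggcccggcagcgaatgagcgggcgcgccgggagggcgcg
ALAS2, chrX:55031065-55031227, minus strand: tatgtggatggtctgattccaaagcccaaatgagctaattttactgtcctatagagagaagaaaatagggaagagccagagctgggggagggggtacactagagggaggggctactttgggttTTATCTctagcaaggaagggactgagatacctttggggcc
UROD, chr1:45012004-45012132, plus strand: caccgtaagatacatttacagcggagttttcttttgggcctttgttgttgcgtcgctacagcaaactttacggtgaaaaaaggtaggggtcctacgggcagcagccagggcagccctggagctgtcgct

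In windows of 250 bases before the start, 4 of the 10 windows of these genes held a GATA motif, 1 each for ALAS2, ALAD, CPOX and PPOX, whereas 22.3% of 35116 promoters in the table did. ALAD and PPOX had 2 listed starts each and the motif lay in 1 of their windows. CPOX held 2 GATA motifs, from -207 to -202 and from -125 to -120 relative to the start, and ALAS2 held 1 from -127 to -122. The CACCC-type motif CCNCNCCC was present in 7 of the 10 windows and in 53.4% of all promoters. The GC box GGGCGG, which can overlap the CACCC-type motif, was present in 7 of the 10 and in 42.6% of all. The share of G and C in the 10 windows ran from 49.6% (SLC25A38) to 74.0% (ALAD), beside a median of 58.0% over all promoters. These shares were not matched in the comparison. The 2 ALAD windows overlap, so some of their matches are the same sites. The E-box CACGTG was in 1 of the 10, that of SLC25A38, and in 6.34% of all. A match is only a run of letters in this window and does not show binding.

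Compared per length, as CPM per kilobase of summed exons (RPKM), UROD and CPOX had the highest mean levels of the 9 genes in each of the 4 groups. In NT libraries UROD stood at 181.5 ± 4.16 RPKM (SD, n = 2) and CPOX at 131.8 ± 0.639. ALAS1 followed at 33.8 ± 1.13 RPKM, UROS at 33.3 ± 2.57, SLC25A38 at 28.5 ± 0.210 and ALAS2 at 25.9 ± 1.38. The libraries of ALAS1 and UROS overlapped, while those of every other neighbouring pair in the NT order were apart. The lowest were PPOX at 20.8 ± 1.27 RPKM, FECH at 15.4 ± 0.346 and ALAD at 13.3 ± 1.13. The highest mean was thus 13.7 times the lowest in NT.

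That order changed between groups. CPOX was above UROD in the mean of Doxo relapses (134.2 and 79.3 RPKM) and of Doxo + Cyta relapses (139.3 and 117.8 RPKM), with overlapping libraries in both. In Doxo + Cyta + DAC relapses UROD reached 237.0 ± 54.6 RPKM (SD, n = 4) and CPOX 45.4 ± 6.54 RPKM, with no overlap. CPOX then lay next to ALAS1 (43.2 ± 4.53 RPKM) and UROS (39.9 ± 4.78 RPKM), whose libraries it overlapped. ALAS2 went from the sixth place in NT to the third in Doxo and in Doxo + Cyta and back to the sixth in Doxo + Cyta + DAC. PPOX was the lowest in Doxo, and ALAD was the lowest in each of the other groups. The highest mean was 11.3 times the lowest in Doxo, 10.5 times in Doxo + Cyta and 33.5 times in Doxo + Cyta + DAC.

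**Figure D1:**
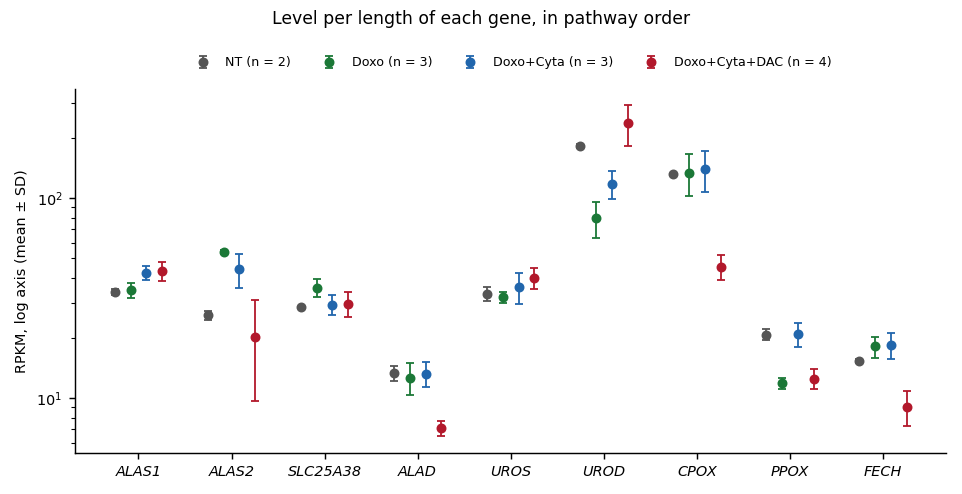
Mean level per length (RPKM, logarithmic axis) of the 9 genes in pathway order, with bars for the SD over libraries in NT (n = 2), Doxo (n = 3), Doxo + Cyta (n = 3) and Doxo + Cyta + DAC (n = 4). UROD and CPOX stand above the rest in NT, and in Doxo + Cyta + DAC UROD stands at 237.0 RPKM while CPOX stands at 45.4.

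Doxo relapses were compared with NT to ask what differed in cells that regrew after the anthracycline alone. UROD fell by 1.19 on the log2 scale (SE 0.20, adjusted p = 0.0038, edgeR quasi-likelihood test), and PPOX fell by 0.81 (SE 0.15, adjusted p = 0.00656). These 2 of the 9 genes passed an adjusted p of 0.05, both lower, against 10.7% of the 14164 genes tested, 6.06% higher and 4.63% lower. The median log2 fold change of the 9 genes was 0.03, beside 0.01 over all genes tested. ALAS2 was about 2-fold higher (log2 1.05, SE 0.34) without passing (adjusted p = 0.0601). Without NT replicate 1 neither gene passed (adjusted p = 0.0652 for UROD and 0.101 for PPOX). Without NT replicate 2 UROD still passed (adjusted p = 0.0466) and PPOX did not (0.0591). Without Doxo 4 and Doxo + Cyta 20, 4 of the 9 passed, namely UROD (log2 -1.40), PPOX (-0.79), ALAS2 (1.04, adjusted p = 0.0363) and SLC25A38 (0.37, adjusted p = 0.0461), and 37.4% of all genes did.

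Doxo + Cyta relapses, compared with NT, gave 0 of the 9 genes past the threshold in edgeR and 0 in DESeq2, with 3 genes at an unadjusted p under 0.05 in edgeR. Few genes passed in this comparison at all: 1.46% of those tested, 0.911% higher and 0.551% lower. The 3 genes were UROD (log2 -0.62, adjusted p = 0.114), ALAS2 (0.77, adjusted p = 0.218) and ALAS1 (0.32, adjusted p = 0.189). The median log2 fold change of the 9 was 0.08, beside 0.005 over all genes. UROD passed when Doxo 4 and Doxo + Cyta 20 were left out (log2 -0.78, adjusted p = 0.0116), among 14.5% of all genes.

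Doxo + Cyta + DAC relapses differed from NT in 5 of the 9 genes. CPOX fell by 1.54 on the log2 scale (SE 0.20, adjusted p = 3.77e-05), ALAD by 0.91 (SE 0.16), FECH by 0.77 (SE 0.16) and PPOX by 0.73 (SE 0.14), and ALAS1 rose by 0.35 (SE 0.12, adjusted p = 0.0304). That count stands against 48.7% of all genes tested, and the 4 lower and 1 higher stand against 23.7% lower and 24.9% higher. The median log2 fold change of the 9 genes was -0.36, beside 0.02 over all genes. The share called among the 9 was therefore near the background, and most of the calls were in 1 direction.

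Against Doxo + Cyta, which differs from it only by decitabine, the Doxo + Cyta + DAC group had 6 of the 9 genes past the threshold. CPOX, ALAS2, FECH, ALAD and PPOX were lower and UROD was higher. The background was 60.3% of all genes, 30.5% lower and 29.8% higher. The median log2 fold change of the 9 genes was -0.74, beside 0.0003 over all genes. A fit without Doxo 4 and Doxo + Cyta 20 gave 7 genes, with UROS added (log2 0.29, adjusted p = 0.0396), among 66.8% of all genes.

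Relative to Doxo relapses, Doxo + Cyta + DAC relapses had CPOX, ALAS2, FECH and ALAD lower and UROD and ALAS1 higher, 6 of the 9. All genes gave 59.5%, with 30.4% lower and 29.1% higher. The median of the 9 was -0.27, beside -0.01 over all genes. Leaving out Doxo 4 and Doxo + Cyta 20 gave 8 of the 9, among 67.9% of all genes, with UROS (log2 0.37, adjusted p = 0.0128) and SLC25A38 (-0.34, adjusted p = 0.0192) added. The comparisons with Doxo + Cyta + DAC share its 4 libraries and so are not independent of each other.

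Doxo + Cyta relapses differed from Doxo relapses in 1 of the 9 genes, PPOX, which was higher (log2 0.81, SE 0.14, adjusted p = 0.00653). Of all genes, 3.4% passed, 1.07% higher and 2.32% lower. Fitted on those 2 groups alone, PPOX no longer passed (log2 0.81, adjusted p = 0.0629). Without Doxo 4 and Doxo + Cyta 20, UROD also passed (log2 0.62, adjusted p = 0.043), among 8.96% of all genes, as it did without Doxo replicate 4 alone (log2 0.76, adjusted p = 0.0355).

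**Figure D2:**
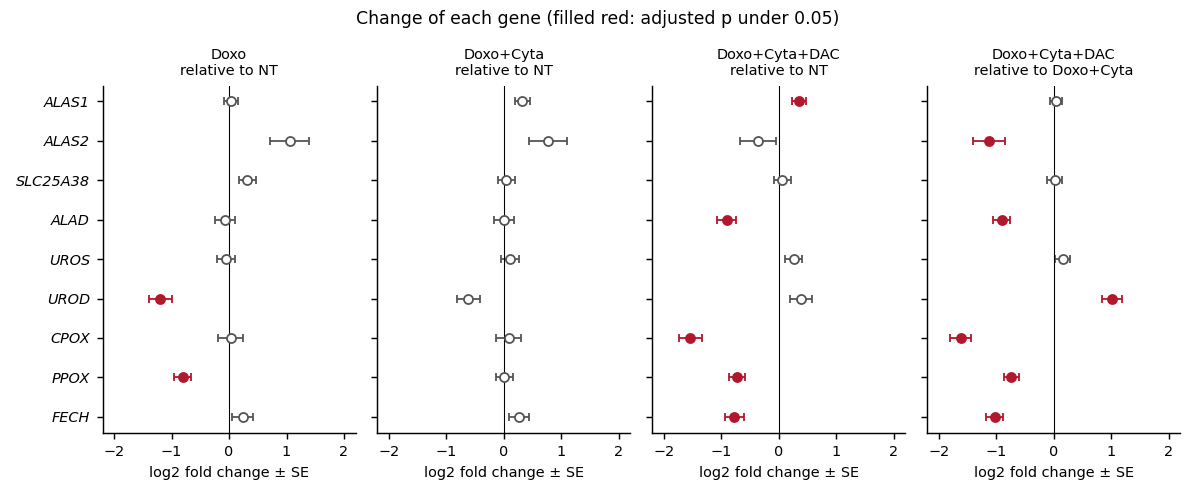
Log2 fold change of each gene with its SE as bars in 4 comparisons, genes in pathway order from top to bottom. Filled red points passed an adjusted p of 0.05 in the edgeR test: UROD and PPOX in Doxo relative to NT, none in Doxo + Cyta relative to NT, 5 genes in Doxo + Cyta + DAC relative to NT and 6 where it is set against Doxo + Cyta.

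At the entry step, ALAS1 (chromosome 3, 52198083 to 52214327, plus strand, in GRCh38) measured 84.9 and 81.0 CPM in NT and 76.6, 86.7 and 91.5 CPM in Doxo replicates 4, 5 and 6. It measured 99.0, 113 and 98.6 CPM in Doxo + Cyta replicates 19, 20 and 22 and 93.6, 114, 116 and 99.5 CPM in Doxo + Cyta + DAC replicates 30 to 33. The 7 libraries of the last 2 groups were thus all above the 5 of the first 2, at the closest 93.6 against 91.5 CPM. This split was seen in the values and was not tested as such. The changes were small: log2 0.35 relative to NT and 0.32 relative to Doxo (SE 0.11, adjusted p = 0.0215) passed for Doxo + Cyta + DAC, while 0.32 and 0.29 for Doxo + Cyta did not (adjusted p = 0.189 and 0.198). The call relative to NT was lost without NT replicate 1, NT replicate 2, or Doxo + Cyta + DAC replicate 31 or 32 (adjusted p = 0.112, 0.18, 0.0642 and 0.0749). It was also lost under upper-quartile scaling (log2 0.27, adjusted p = 0.0806) and with no filter on low counts (log2 0.31, adjusted p = 0.0851). The call relative to Doxo was lost without Doxo replicate 4, or Doxo + Cyta + DAC replicate 31 or 32 (adjusted p = 0.0704, 0.0548 and 0.064).

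ALAS2 (chromosome X, 55009055 to 55031064, minus strand), the erythroid form, measured 57.4 and 53.3 CPM in NT. It measured 113, 118 and 114 CPM in Doxo relapses and 115, 81.6 and 85.6 CPM in Doxo + Cyta relapses. In Doxo + Cyta + DAC relapses it measured 34.3, 23.4, 39.3 and 75.7 CPM. All 6 libraries of the first relapse groups lay above NT, as did their summed erythroid markers, and all 4 Doxo + Cyta + DAC libraries lay below those 6. Replicates 30, 31 and 32 were below NT and replicate 33 was above it. ALAS2 fell by 1.13 on the log2 scale relative to Doxo + Cyta (SE 0.27, adjusted p = 0.00276) and by 1.42 relative to Doxo (SE 0.27, adjusted p = 0.000545). The change relative to NT was -0.36 (SE 0.31, adjusted p = 0.352), and -0.77 without replicate 33 (SE 0.20, adjusted p = 0.00651). The difference of Doxo from NT, which did not pass in the edgeR fit after the filter on low counts, passed in DESeq2 (log2 1.04, adjusted p = 0.018), in an edgeR fit on those 2 groups alone (log2 1.05, adjusted p = 0.00243) and in edgeR on all 12 libraries with no filter (log2 1.00, adjusted p = 0.0247).

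The ratio of ALAS2 to ALAS1 per length summarises both forms within a library. It was 0.777 and 0.756 in NT and 1.70, 1.57 and 1.43 in Doxo replicates 4, 5 and 6. In Doxo + Cyta replicates 19, 20 and 22 it was 1.34, 0.828 and 0.998. In Doxo + Cyta + DAC replicates 30 to 33 it was 0.422, 0.236, 0.388 and 0.874. The erythroid form was thus above the other form in all 3 Doxo libraries and in Doxo + Cyta replicate 19. It was below in both NT and all 4 Doxo + Cyta + DAC libraries. The ratio is given as a description, without a test.

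**Figure D3:**
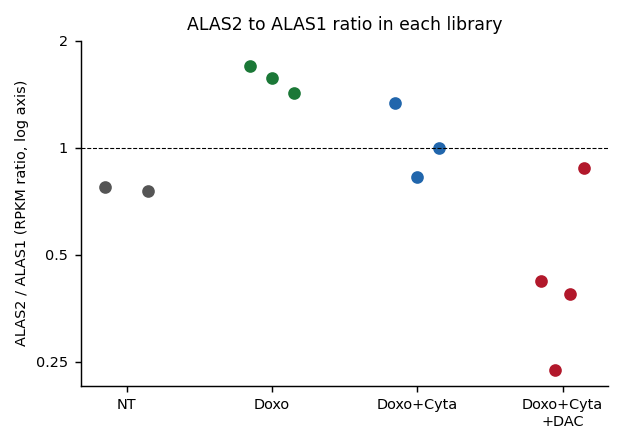
Ratio of ALAS2 to ALAS1 in RPKM (logarithmic axis) in each of the 12 libraries, with a dashed line at 1. Doxo libraries lie between 1.43 and 1.70, NT libraries at 0.756 and 0.777, and Doxo + Cyta + DAC libraries between 0.236 and 0.874.

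SLC25A38 (chromosome 3, 39383324 to 39397328, plus strand), the glycine carrier, measured 60.9 and 60.2 CPM in NT and 66.6, 79.6 and 80.6 CPM in Doxo relapses. It measured 54.5, 68.3 and 64.5 CPM in Doxo + Cyta and 70.7, 50.3, 67.3 and 63.3 CPM in Doxo + Cyta + DAC relapses. The last 2 groups overlapped each other and NT. No comparison passed with all 12 libraries: Doxo relative to NT gave log2 0.32 (SE 0.16, adjusted p = 0.192). Relative to Doxo, Doxo + Cyta + DAC gave -0.27 (SE 0.13, adjusted p = 0.09), and -0.34 without Doxo replicate 4 (adjusted p = 0.042).

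In the cytosolic steps, ALAD (chromosome 9, 113386312 to 113401338, minus strand), which joins 5-aminolevulinate molecules into porphobilinogen, measured 39.7 and 44.8 CPM in NT. It measured 32.0, 46.5 and 42.6 CPM in Doxo, 47.3, 35.5 and 43.8 CPM in Doxo + Cyta and 21.4, 20.9, 22.5 and 25.3 CPM in Doxo + Cyta + DAC relapses. The Doxo + Cyta + DAC libraries lay below all 8 others, and the lowest values outside that group were those of Doxo 4 and Doxo + Cyta 20. How many of all genes lay below in this way was not counted, for ALAD or for CPOX and FECH. ALAD fell by 0.91 relative to NT (adjusted p = 0.000424), by 0.91 relative to Doxo + Cyta (adjusted p = 9.86e-05) and by 0.84 relative to Doxo (adjusted p = 0.000202) on the log2 scale. The other comparisons gave changes between -0.07 and 0.07 and did not pass.

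UROS (chromosome 10, 125788578 to 125823268, minus strand) measured 47.6 and 42.7 CPM in NT, 46.0, 40.5 and 43.6 CPM in Doxo, 46.9, 57.9 and 41.2 CPM in Doxo + Cyta and 45.4, 56.0, 60.8 and 53.7 CPM in Doxo + Cyta + DAC relapses. Every pair of groups overlapped, though 3 of the 4 Doxo + Cyta + DAC libraries were above every Doxo and NT library. The change of Doxo + Cyta + DAC relative to Doxo was log2 0.32 (SE 0.13, adjusted p = 0.0542). It passed in DESeq2 (adjusted p = 0.0479), in a fit on those 2 groups alone (0.0385) and without Doxo + Cyta + DAC replicate 30 (0.0246).

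UROD (chromosome 1, 45012133 to 45015669, plus strand), whose product turns uroporphyrinogen into coproporphyrinogen, had no overlap between any of the 4 groups. The share of all genes that separate in this way was not counted. UROD measured 268.9 and 260.3 CPM in NT and 142.3, 99.1 and 105.7 CPM in Doxo relapses. Doxo + Cyta relapses measured 163.3, 202.2 and 150.0 CPM, and Doxo + Cyta + DAC relapses 298.8, 464.2, 318.3 and 300.5 CPM. The order was Doxo, Doxo + Cyta, NT and Doxo + Cyta + DAC from low to high, with Doxo 4 and Doxo + Cyta 20 the highest of their groups. UROD rose in Doxo + Cyta + DAC by log2 1.58 relative to Doxo (SE 0.18, adjusted p = 6.25e-06) and by 1.01 relative to Doxo + Cyta (SE 0.17, adjusted p = 0.000194). The difference of 0.38 from NT did not pass (SE 0.19, adjusted p = 0.117), and was 0.21 without replicate 31.

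Of the final, mitochondrial steps, CPOX (chromosome 3, 98579446 to 98593611, minus strand) showed the largest fall of the 9 in Doxo + Cyta + DAC relapses. It measured 358.2 and 355.8 CPM in NT, 263.7, 408.4 and 418.7 CPM in Doxo and 435.5, 277.4 and 419.5 CPM in Doxo + Cyta relapses. The 4 Doxo + Cyta + DAC libraries measured 104.7, 122.2, 117.8 and 147.1 CPM and lay below all 8 others. Doxo 4 and Doxo + Cyta 20 were below NT, whereas the other Doxo and Doxo + Cyta libraries were above it. CPOX fell by 1.62 relative to Doxo + Cyta (SE 0.18, adjusted p = 4.33e-06) and by 1.57 relative to Doxo (SE 0.18, adjusted p = 7.14e-06), about 3-fold in both. These values were -1.80 and -1.75 without Doxo 4 and Doxo + Cyta 20.

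PPOX (chromosome 1, 161166391 to 161171220, plus strand), which makes protoporphyrin, was low in different groups from CPOX. It measured 38.4 and 35.2 CPM in NT and 42.3, 36.2 and 32.2 CPM in Doxo + Cyta relapses, against 19.7, 21.1 and 22.3 CPM in Doxo and 23.0, 24.9, 21.7 and 18.9 CPM in Doxo + Cyta + DAC relapses. The 7 libraries of the last 2 groups lay below the 5 of the first 2, and overlapped each other. How many of all genes split in this way was not counted. PPOX fell by 0.73 relative to NT (adjusted p = 0.000828) and by 0.74 relative to Doxo + Cyta (adjusted p = 0.000196) in Doxo + Cyta + DAC. Its difference between Doxo + Cyta + DAC and Doxo was 0.07 (SE 0.13, adjusted p = 0.642).

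FECH (chromosome 18, 57544841 to 57586737, minus strand), which closes the route by adding iron, measured 114.0 and 110.4 CPM in NT. Doxo relapses measured 114.1, 137.1 and 144.9 CPM and Doxo + Cyta relapses 156.4, 117.0 and 129.0 CPM. Doxo + Cyta + DAC relapses measured 59.8, 58.3, 59.3 and 85.3 CPM, all below the 8 other libraries. FECH fell by 0.77 relative to NT (SE 0.16, adjusted p = 0.00156), by 1.03 relative to Doxo + Cyta (SE 0.15, adjusted p = 3.86e-05) and by 1.01 relative to Doxo (SE 0.15, adjusted p = 5.31e-05). Replicate 33, the highest of its group for FECH, was also the highest for ALAS2, ALAD and CPOX.

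**Figure D4:**
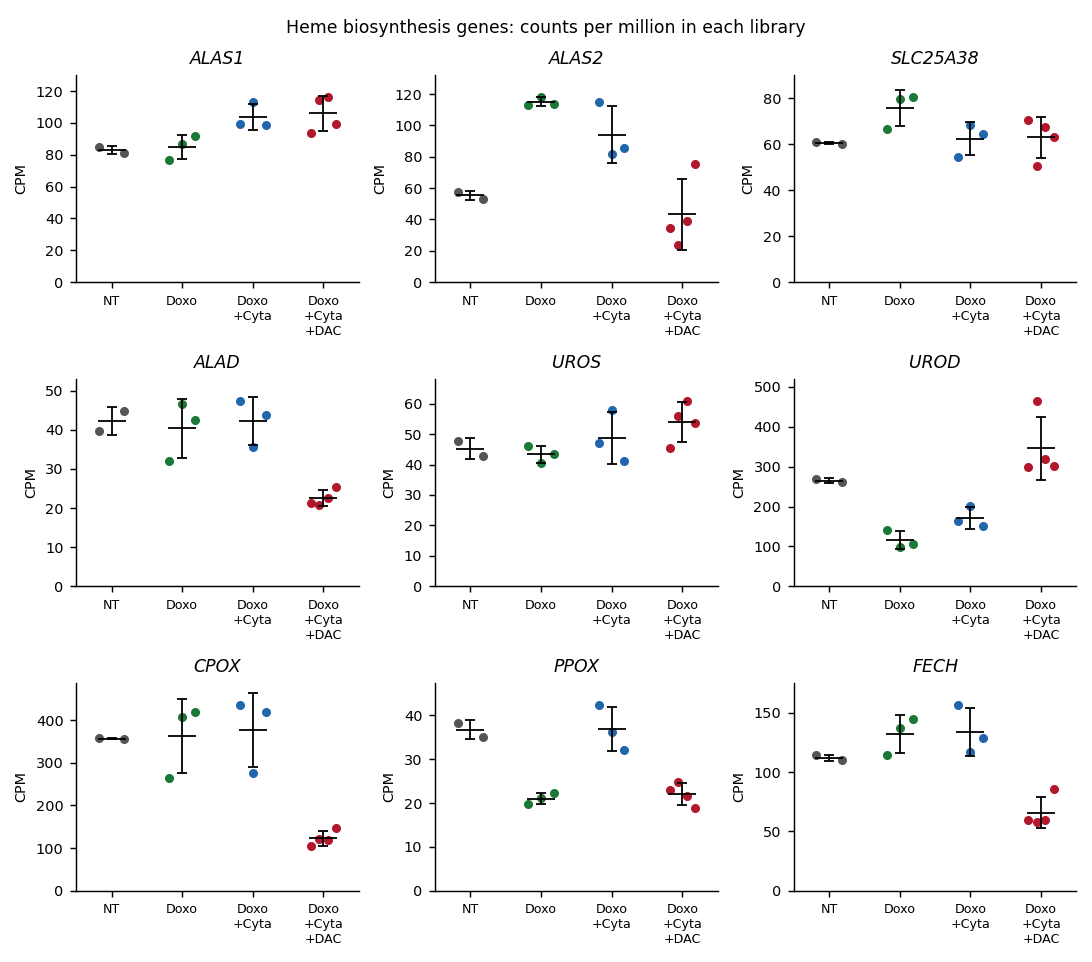
CPM of the 9 genes in each library (points) with the mean and SD of each group (bars), in pathway order, each panel on its own axis from 0. CPOX, ALAD and FECH in Doxo + Cyta + DAC lie below all other libraries, and the UROD libraries of the 4 groups do not overlap. The share of all genes that separate in these ways was not counted.

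The 9 genes did not vary as 1 set over the 12 libraries. Pearson correlations of log2 CPM, given only as a description because the libraries fall into 4 groups, were 0.99 for ALAD with CPOX, 0.96 for CPOX with FECH and 0.95 for ALAD with FECH. ALAS2 followed FECH with 0.89. UROD ran opposite to ALAS2 (-0.90), FECH (-0.83) and CPOX (-0.77). PPOX had values between -0.46 and 0.53 with every other member. The genes outside the set with the most similar profile to CPOX were SHOX2 (0.99), KIAA1467 (0.99) and DYM (0.99), and KIAA1467 was also nearest to ALAD (0.99). ZFYVE1 was nearest to FECH (0.98), PRCP to ALAS2 (0.96), ABCB8 to UROD (0.98), RNASEK to PPOX (0.94), DISP1 to SLC25A38 (0.92), LOC101929705 to UROS (0.89) and SCAMP3 to ALAS1 (0.88).

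Neighbouring genes were looked at for the change from Doxo + Cyta to Doxo + Cyta + DAC, where 29.8% of all genes were higher and 30.5% lower. Within 1 Mb of CPOX, 5 other genes with a single position were tested: 1 was higher, 1 was lower and their median was 0.12 on the log2 scale, against -1.62 for CPOX. Around FECH, 7 genes gave 2 higher, 2 lower and a median of 0.24, against -1.03. Around UROD, 31 genes gave 8 higher, 8 lower and a median of 0.07, against 1.01. The 45 genes around PPOX gave 10 higher and 22 lower with a median of -0.44, against -0.74 for PPOX itself. ALAS2 had 15 tested neighbours, 1 higher and 6 lower, with a median of -0.18.

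Genes that feed or serve the route were read from 5 lists. Of 12 tested genes for substrate supply and transport of intermediates, 3 were higher and 4 lower in Doxo + Cyta + DAC relative to NT, with a median of -0.03 on the log2 scale. These 7 calls in 12 are near the 48.7% called among all genes, so the count is no result about the list, and its genes are described singly. SLC25A37, or mitoferrin 1, which brings iron into the mitochondria of erythroid cells, showed the largest fall of the list relative to NT, by 1.33 (SE 0.16, adjusted p = 2.26e-05), from 392.8 ± 1.55 CPM in NT (SD, n = 2) to 156.6 ± 32.0 CPM (n = 4). It stood at 562.3 ± 28.3 CPM in Doxo and 569.0 ± 96.1 CPM in Doxo + Cyta (n = 3 each), and no Doxo + Cyta + DAC library overlapped another group. TMEM14C, needed for porphyrinogen movement in mitochondria, fell by 1.31 (SE 0.20). SLC25A28, or mitoferrin 2, and ABCB10, which binds mitoferrin 1, also fell, by 0.54 and 0.53. The 3 higher genes act on the substrates: SUCLA2 (0.51), a subunit of succinyl-CoA synthetase, OGDH (0.37), which makes succinyl-CoA, and SHMT2 (0.37), which makes glycine from serine. TMEM14C and OGDH were also called in Doxo relative to NT, both lower. The log2 changes there were -0.73 (SE 0.22, adjusted p = 0.0441, edgeR) and -0.48 (SE 0.13, adjusted p = 0.0385).

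In the iron-sulfur cluster assembly list, 7 of 11 genes were higher and 1 lower relative to NT, against 24.9% higher and 23.7% lower among all genes, and the median was 0.67 beside 0.02. FECH carries such a cluster. HSPA9, the mitochondrial chaperone of that assembly, rose by 1.30 (SE 0.12, adjusted p = 3.13e-06), from 322.5 to 793.3 CPM. FDX1 (0.88), ISCA1 (0.87), FDX1L (0.76), FDXR (0.75), GLRX5 (0.67) and ISCU (0.45) also rose, and ISCA2 fell by 0.93. Relative to Doxo + Cyta, 5 were higher and 1 lower with a median of 0.52, where 29.8% of all genes were higher and 30.5% lower. Relative to Doxo the counts were 7 and 1 with a median of 0.71, where the shares were 29.1% and 30.4%. In Doxo relative to NT, ISCU was higher (log2 0.50) and LYRM4, a partner of the cysteine desulfurase, lower (-0.93), with a list median of 0.013.

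Of 8 tested genes that bear on 5-aminolevulinate synthase, 2 rose and 2 fell in Doxo + Cyta + DAC relative to NT, a share near the 48.7% of all genes. EIF2AK1, the heme-regulated kinase that slows globin translation when heme is short, fell by 0.97 (SE 0.16), and CLPX, the unfoldase that acts on 5-aminolevulinate synthase, fell by 0.56 (SE 0.18). LONP1, a mitochondrial protease, rose by 0.60 and NRF1 by 0.52. Of the 14 tested genes for heme export, use and breakdown, 3 rose and 4 fell, again near that 48.7%. SLC48A1, a heme transporter of endosomes and lysosomes, fell by 1.43, BLVRB, a biliverdin reductase, by 1.04, HEBP1, a heme-binding protein, by 0.84, and COX15, which makes heme A, by 0.44. HMOX2, the constitutive heme oxygenase, rose by 0.99 and the heme-binding PGRMC1 by 0.63. ABCG2, a porphyrin exporter, was called higher from 0.141 CPM in NT, under the level of 3 counts, to 3.02 CPM, and its fitted change is not given. Doxo and Doxo + Cyta relapses, at 1.61 and 1.53 CPM, were also called higher than NT for ABCG2.

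HMOX1, the inducible heme oxygenase that breaks heme down, followed the drugs in another order. It averaged 11.3 ± 0.157 CPM in NT (SD, n = 2), 31.8 ± 4.02 CPM in Doxo (n = 3), 19.7 ± 2.68 CPM in Doxo + Cyta (n = 3) and 10.4 ± 1.02 CPM in Doxo + Cyta + DAC (n = 4). Its rise over NT was log2 1.49 in Doxo relapses (SE 0.17, adjusted p = 0.000407). With cytarabine added the rise was 0.80 (SE 0.17, adjusted p = 0.0394). The change in Doxo + Cyta + DAC was -0.12 (SE 0.16, adjusted p = 0.543). BLVRB also rose in Doxo relative to NT, by 0.78 (SE 0.21, adjusted p = 0.0323).

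Of 8 erythroid transcription factor genes, 5 fell and 0 rose in Doxo + Cyta + DAC relative to NT, with a median of -0.51 beside 0.02 over all genes, of which 23.7% fell and 24.9% rose. GATA1 went from 280.3 to 181.9 CPM (log2 -0.62, SE 0.11) and KLF1 from 147.2 to 89.9 CPM (log2 -0.71, SE 0.15), and LDB1, NFE2 and LMO2 were the others. No other comparison with NT gave more than 1 call in this list, LDB1 in Doxo (log2 -0.36). In Doxo relative to NT the lists of supply, iron-sulfur, synthase control, export and transcription factor genes gave 2, 2, 0, 3 and 1 calls, in 12, 11, 8, 14 and 8 genes tested, where 10.7% of all genes were called. In Doxo + Cyta relative to NT they gave 0, 0, 0, 2 and 0, where 1.46% of all genes were.

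**Figure D5:**
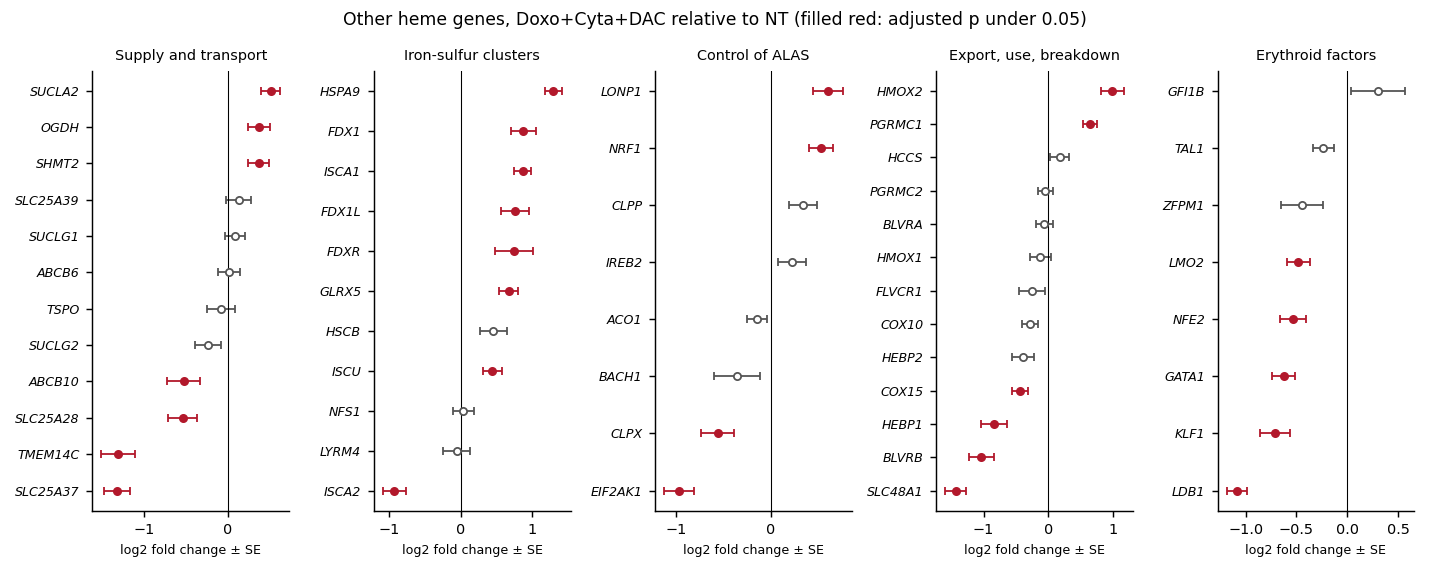
Log2 fold change with its SE as bars in Doxo + Cyta + DAC relative to NT for the tested genes of 5 lists around heme synthesis. Filled red points passed an adjusted p of 0.05 in the edgeR test, and genes with a mean under 1 CPM in NT (ABCG2) are not drawn. The iron-sulfur list has 7 filled points to the right and 1 to the left, and the erythroid factors 5 filled points to the left.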

How the data were processed

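The authors quality-filtered paired-end TruSeq reads, aligned them to GRCh38 with Bowtie2 2.2.8 and counted fragments per gene with featureCounts 1.6.0, ignoring strand and leaving out multi-mapping and chimeric fragments; the deposited values are raw counts, with a summed exon length per gene. The series design names 3 untreated replicates, of which the 2 labelled libraries were analysed here. No exon base of the 9 genes was shared with another gene. From the counts, 4 genes with a missing value were left out, filterByExpr kept 14164, and edgeR 4.0.16 (R 4.3.3) fitted all 12 libraries by group with TMM scaling and a two-sided quasi-likelihood test, Benjamini-Hochberg adjusted over all genes and called at 0.05. Members and gene lists were chosen with earlier results of these data known. FDX2 was matched as FDX1L. SLC6A9, PPARGC1A and FLVCR2 were under the filter. Some other genes of the route and lists are not reported here. Named were all 9 genes, genes of the lists, and for each member the genes most correlated with it in log2 CPM (prior count 2). Alternatives were DESeq2 1.42.0, other scalings and filters, fewer groups and left-out libraries. Neighbours within 1 Mb, leaving out 523 genes deposited on several chromosomes or over a span above 3000000 bases, and the fit without both libraries that stood apart were chosen after seeing the data.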

Additional observations from a re-analysis of the deposited data

Results flagged for a closer look

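In groups of 4 or more libraries, which here means Doxo + Cyta + DAC, a library was looked at again when it lay far from the others of its group relative to the range of that group. Of 9 genes looked at, 2 had such a library, where chance gives about 1 in 20 per gene. UROD stood at 464.2 CPM in Doxo + Cyta + DAC replicate 31, with a gap to the nearest library of 0.883 of the range. FECH stood at 85.33 CPM in Doxo + Cyta + DAC replicate 33, with a gap of 0.944 of the range. With any 1 library left out, the log2 fold change from Doxo + Cyta was between 0.83 and 1.14 for UROD and between -1.18 and -0.91 for FECH, past the threshold each time. The cause was not tested. Groups of 2 or 3 libraries could not be examined this way.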

How the results depend on the processing

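Of 54 changes of the 9 genes over 6 comparisons, 20 were called; all 20 kept their direction in every alternative run and 15 stayed past the threshold in each. The other 5 were UROD and PPOX in Doxo relative to NT, ALAS1 in the triple-drug relapses against NT (adjusted p up to 0.18) and against Doxo (up to 0.0704), and PPOX in Doxo + Cyta relative to Doxo (0.0629 with only those groups). Of 34 changes not called, 8 passed in at least 1 alternative. Leaving out 1 library gave 0 to 2 called members in Doxo relative to NT and 1 to 2 in Doxo + Cyta relative to Doxo; fitting only those 2 groups gave 0 in the latter. Without Doxo 4 and Doxo + Cyta 20, chosen after seeing the data, the counts were 4 in Doxo relative to NT, 1 in Doxo + Cyta relative to NT and 2 in Doxo + Cyta relative to Doxo. The cause was not tested. A fit with 1 NT library left assumes that it varies like the other groups. No paired analysis was possible because the groups share no replicate numbers. Depth limits little here, since no gene of the 9 had under 239 counts; the number of libraries, 2 in NT, limits the precision.

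Changes that turned direction were all uncalled and near 0. Upper-quartile scaling gave -0.014 for ALAS1 and -0.024 for CPOX in Doxo relative to NT, 0.0025 for ALAD in Doxo + Cyta relative to NT, -0.028 for SLC25A38 in Doxo + Cyta + DAC relative to NT, and -0.059 for ALAS1 and -0.077 for SLC25A38 in Doxo + Cyta + DAC against Doxo + Cyta. With no filter, ALAS1 and CPOX in Doxo relative to NT gave -0.0195 and -0.027, and PPOX and SLC25A38 in Doxo + Cyta relative to NT gave -0.0397 and -0.0002. PPOX in that comparison gave -0.0069 with RLE scaling, -0.0094 with only those groups and -0.0085 in DESeq2. At least 10 counts in every sample gave -0.0049 for ALAS1 and -0.025 for SLC25A38 in Doxo + Cyta + DAC against Doxo + Cyta. Without Doxo 4 and Doxo + Cyta 20, ALAD gave 0.0457 in Doxo relative to NT, and in Doxo + Cyta relative to NT ALAD gave 0.0878, UROS -0.0571, PPOX -0.0027 and SLC25A38 -0.0467.

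Leaving out 1 library at a time, Doxo relative to NT ranged from -0.047 to 0.0727 for ALAS1, -0.2063 to 0.0456 for ALAD, -0.1365 to 0.0193 for UROS and -0.1116 to 0.1819 for CPOX. Doxo + Cyta relative to NT ranged from -0.1081 to 0.0874 for ALAD, -0.057 to 0.2008 for UROS, -0.0526 to 0.2387 for CPOX, -0.1215 to 0.081 for PPOX and -0.047 to 0.1161 for SLC25A38. Doxo + Cyta + DAC ranged from -0.0036 to 0.1497 for SLC25A38 relative to NT, and relative to Doxo + Cyta from -0.0145 to 0.0974 for ALAS1 and -0.0852 to 0.1062 for SLC25A38. Doxo + Cyta relative to Doxo ranged from -0.0646 to 0.1875 for ALAD, -0.12 to 0.2399 for CPOX and -0.091 to 0.1181 for FECH.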
